A study of Mus musculus with 6 samples.

Results

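Zinc finger protein genes are the genes whose mouse symbols begin with Zfp, Zscan, Zkscan or Zbtb followed by a digit. Of the 3162 genes held in the processed files, 49 carried such a symbol, 41 named Zfp, 4 Zscan, 2 Zkscan and 2 Zbtb. The GRCm38 annotation lists 465 protein-coding genes of this naming, so the genes described here are 10.5% of them, and the other genes of that naming were not analysed here. The samples were white fat taken at the epididymis of wild-type (WT) male C57BL/6J mice aged 16 weeks. In 3 samples the mice had been fed normally and in the other 3 they had been starved for 24 h. The labels tie no sample to a named animal, so p-values measure the spread between these samples. Expression was measured by bulk RNA sequencing and given as FPKM, a scale normalised to sequencing depth and transcript length on which levels of different genes can be compared.

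The C2H2 zinc finger is a small fold held together by a zinc ion, and arrays of such fingers read DNA sequence. In the largest group of these proteins a KRAB box stands before the fingers and recruits the corepressor KAP1 (Trim28) with the histone methyltransferase SETDB1, which together silence chromatin, above all at retroelements. A SCAN domain lets proteins pair with each other, and the BTB domain of the Zbtb proteins dimerises and recruits corepressors. KRAB genes lie in tandem clusters that grew by duplication, so neighbours can be nearly identical. A few proteins with these symbols are not DNA-binding factors at all and act on RNA, ribosomes or the cytoskeleton. In fat, Zfp423 is known as a factor of preadipocyte commitment and Zfp516 as an activator of the brown fat programme.

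The genes held were nearly all ones that separate the fed from the fasted libraries, and how they were picked is not given in the sources. Fed and fasted values did not overlap in 93.4% of all 3162 genes, and only 20 genes had a log2 ratio of group means between -0.2 and 0.45. P-values below therefore carry no genome-wide error rate. A gene was tested by limma on log2(FPKM + 1) where its mean over the 6 libraries was at least 1 FPKM, and was called where its Benjamini-Hochberg adjusted p over all 2999 tested genes was under 0.05. Sequencing depth is unknown, because FPKM values rounded to 2 decimals do not give back the reads. Summed FPKM of the 49 genes ran from 541.6 to 599.8 in the fed and from 671.6 to 1223.7 in the fasted libraries. A large part of the fasted spread was 1 gene, Zfp972. It gave 250.78 of 982.0, 488.26 of 1223.7 and 63.13 of 671.6 FPKM in fasted replicates 1, 2 and 3.

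Most zinc finger genes held were higher in fasted fat. Of 47 tested, 36 rose (76.6%), 8 fell (17%) and 3 did not pass, whereas 41.1% of all tested genes were called higher and 49.4% lower, 90.5% in all. The median log2 fold change of the tested zinc finger genes was 0.58, and that of all tested genes was -0.34. Fed and fasted values did not overlap in any of the 49 genes, with 37 higher and 12 lower in fasted fat, against 41.9% and 51.5% of all genes held. Zfp973 and Zfp990, under the filter, were the 2 not tested. These counts describe genes already chosen for a difference and are not independent evidence of a direction. The same limit applies wherever non-overlap is stated for a single gene below. Had every annotated gene not tested been given the largest possible p, 2 rises (Zfp516 and Zkscan17) and 3 falls (Zfp185, Zfp385a and Zfp423) would have passed, where the share of all tested genes was 5.74% for rises and 6.4% for falls.

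**Figure D1:**
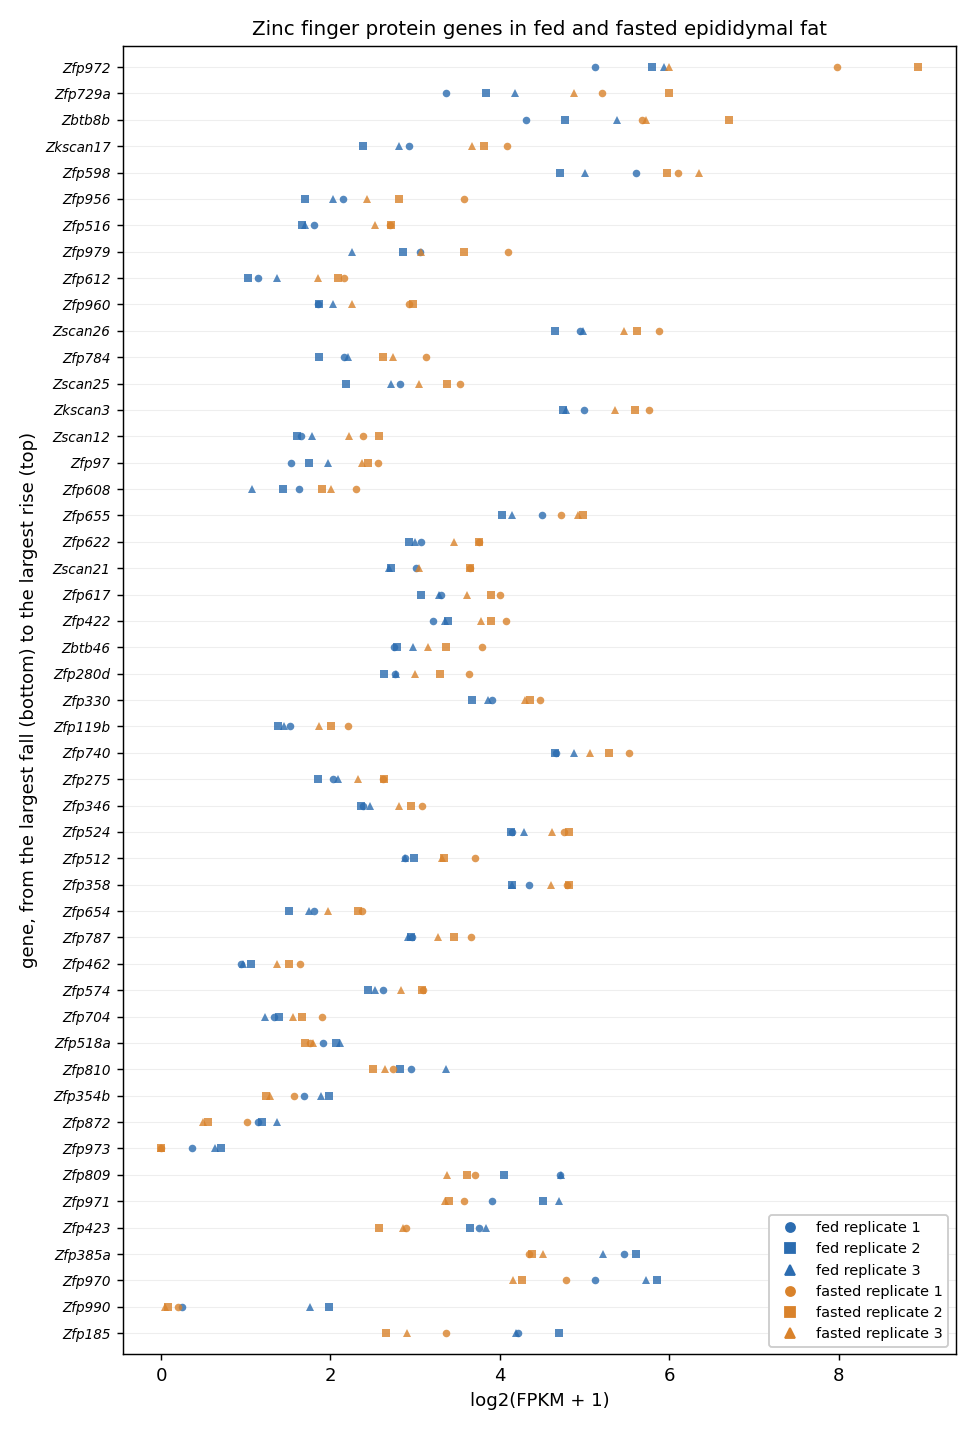
Each row is a zinc finger gene and each point a library, on the log2(FPKM + 1) scale; blue points are fed and orange points fasted samples, and circles, squares and triangles are replicates 1, 2 and 3. The 2 untested genes are placed by a fit without the filter. In all 49 genes the 3 fasted points lie on 1 side of the 3 fed points, to the right in 37 and to the left in 12.

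Levels were low. The median gene had a mean of 8.10 FPKM over the 6 libraries, against 15.1 FPKM for all genes held, 31 of the 49 were under 10 FPKM and 12 reached at least 20 FPKM. The 10 highest, by mean, were Zfp972 (158 FPKM), Zfp598 (52.4), Zbtb8b (48.5), Zscan26 (39.0), Zkscan3 (37.4), Zfp970 (34.0), Zfp740 (32.1), Zfp385a (31.4), Zfp729a (27.8) and Zfp655 (23.2). The rises were mostly modest and alike. On the scale of log2 ratios of mean FPKM, the median of genes higher in fasted fat was 0.75, below the 0.96 of all such genes held, and the smallest was 0.55. Genes lower in fasted fat had a median of -1.07, deeper than the -0.66 of all such genes held, and the smallest was -0.38. The edges of these ranges are set by the choice of the genes held.

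The fasted libraries differed among themselves in the same order in most genes. Fasted replicate 1 was the highest fasted library in 24 of the 37 genes above fed, and fasted replicate 3 the lowest in 32 of them. The median ratio of fasted replicate 3 to the mean of the other fasted libraries was 0.797 in these 37 genes and 0.803 in the 1326 genes of any kind that were above fed, so this order was not particular to zinc finger genes. Between 30 and 37 zinc finger genes rose and between 6 and 8 fell when each library was left out in turn.

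Domains were searched in the longest annotated protein of each gene by letter patterns for the C2H2 finger, the KRAB box and the SCAN domain. No BTB pattern was searched, and BTB genes are those with a Zbtb symbol. The KRAB pattern was found in 16 of the 49 proteins (32.7%) and in 50.1% of all 465, the SCAN pattern in 6 (12.2%) and in 7.31%. The KRAB pattern is strict, and found only 2 of the 11 annotated Zkscan proteins, so divergent boxes count here as no KRAB. Of the KRAB genes 8 were higher and 8 lower in fasted fat, a split near that of all genes held (41.9% and 51.5%), and of 14 tested 8 rose and 5 fell. Among the 33 genes without the pattern, Zkscan3 and Zkscan17 included, 29 were higher and 4 lower, and 28 rose and 3 fell. All 6 SCAN genes and both BTB genes rose. With median-ratio and quantile scaling 8 KRAB genes rose and 3 and 6 fell, while 29 and 27 of the others rose and 3 and 4 fell. Only 3 KRAB falls passed without fed replicate 3, fasted replicate 2 or fasted replicate 3. The difference between the classes was not tested.

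**Figure D2:**
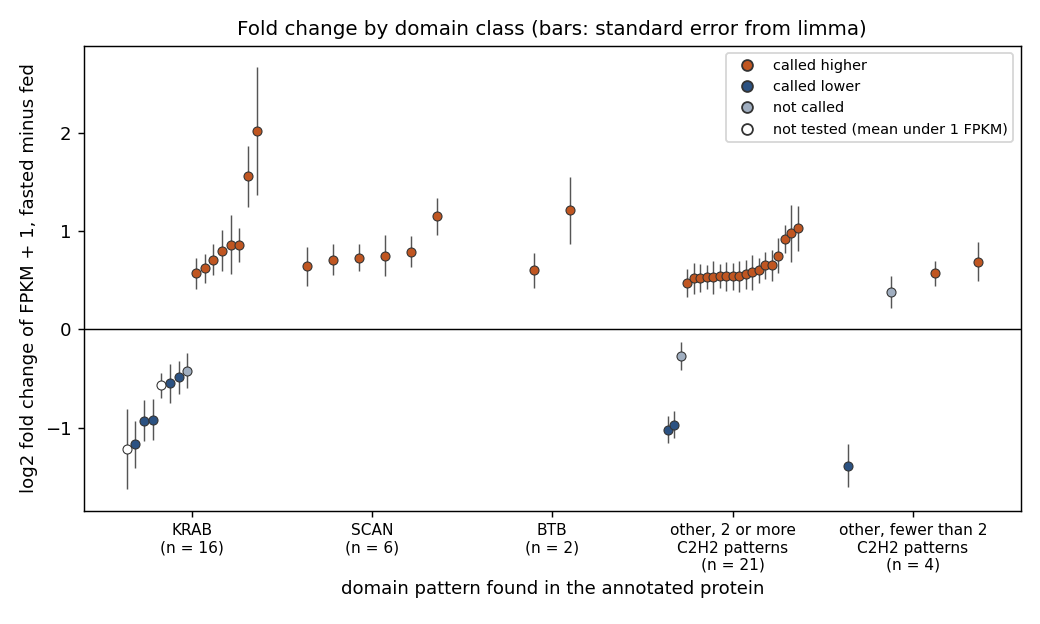
Points are genes, the vertical axis is the log2 fold change of FPKM + 1 (fasted minus fed) and bars are limma standard errors. Columns group genes by the domain pattern found in the protein, except that BTB genes are those with a Zbtb symbol. White points are the 2 genes under the filter, fitted without it. KRAB genes lie on both sides of 0, with 8 above and 8 below, whereas all 6 SCAN and both BTB genes lie above it.

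On chromosome 2, 4 KRAB genes of 1 cluster did not all move the same way in fasted fat, with 3 lower and 1 higher. Zfp970, Zfp971, Zfp972 and Zfp973 belong to a cluster of recently duplicated KRAB genes at the end of that chromosome. The sequences below are the bases before their transcription starts (RefSeq, GRCm38.p6, annotated exon bases left out), shown so that the likeness of the 4 copies can be read beside their values. Capitals mark the CCAAT box (CCAAT, or ATTGG on the other strand), the binding letters of NF-Y. The windows are chr2:177464492-177464732 for Zfp970, chr2:178023034-178023283 for Zfp971 and chr2:176670272-176670521 for Zfp973, all on the plus strand, and chr2:177925651-177925900 on the minus strand for Zfp972.
Zfp970: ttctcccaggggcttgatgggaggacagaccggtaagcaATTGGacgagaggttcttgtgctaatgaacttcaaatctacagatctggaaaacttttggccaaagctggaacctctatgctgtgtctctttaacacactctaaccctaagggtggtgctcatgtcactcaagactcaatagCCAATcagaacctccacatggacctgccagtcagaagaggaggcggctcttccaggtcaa
Zfp971: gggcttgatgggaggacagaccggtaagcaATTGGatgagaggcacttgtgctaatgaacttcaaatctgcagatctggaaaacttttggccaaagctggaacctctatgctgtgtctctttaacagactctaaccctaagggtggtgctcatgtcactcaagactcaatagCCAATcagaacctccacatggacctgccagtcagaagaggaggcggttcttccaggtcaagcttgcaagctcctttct
Zfp973: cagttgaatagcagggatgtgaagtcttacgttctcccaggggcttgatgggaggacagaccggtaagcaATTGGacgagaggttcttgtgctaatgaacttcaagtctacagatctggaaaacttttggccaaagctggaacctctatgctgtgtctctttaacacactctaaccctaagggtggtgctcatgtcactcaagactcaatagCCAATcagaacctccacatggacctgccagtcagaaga
Zfp972: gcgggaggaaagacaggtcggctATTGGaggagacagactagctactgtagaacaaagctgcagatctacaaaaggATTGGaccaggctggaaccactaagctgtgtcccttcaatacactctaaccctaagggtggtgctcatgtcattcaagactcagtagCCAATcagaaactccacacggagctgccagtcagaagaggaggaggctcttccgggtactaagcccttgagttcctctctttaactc

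Over their aligned stretches the Zfp970 window was 97.4% identical to that of Zfp971 and 99.5% to that of Zfp973, and the Zfp972 window was 79.4% to 80.5% identical to the other 3. All 4 held at least 2 CCAAT boxes, and Zfp972 held 3. Zfp970 was at 33.79, 56.82 and 52.10 FPKM in the fed and 26.40, 18.16 and 16.86 FPKM in the fasted libraries, which is -1.17 ± 0.24 as a fitted log2 fold change with its SE (limma adjusted p = 0.00503). Every fasted value was below every fed value. Zfp971 fell as well, from 14.07, 21.76 and 25.00 to 10.95, 9.59 and 9.21 FPKM (-0.93 ± 0.21, adjusted p = 0.00672). Zfp973, under the filter and not tested, was at 0.29, 0.64 and 0.55 FPKM in the fed libraries and was listed at 0 in all 3 fasted libraries. Its fed mean was 0.49 FPKM and that of Zfp970 47.57 FPKM, although their windows were 99.5% identical. The part of promoter sequence in level or direction was not tested.

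Zfp972 rose, and had the largest fold change of the 47 tested genes on the log2(FPKM + 1) scale. It was at 33.88, 54.43 and 60.20 FPKM in the fed libraries and at 250.78, 488.26 and 63.13 FPKM in the fasted ones. Fasted replicate 3 lay just above the highest fed library, while the other 2 fasted libraries were several times higher. The ratio of means was 5.40 and the log2 fold change 2.02 ± 0.65 (limma adjusted p = 0.021), and the call was lost without fed replicate 1 (adjusted p = 0.0523) or without fasted replicate 1 (0.0665). The log2 fold change was 1.37 without fasted replicate 2 and 2.84 without fasted replicate 3. The longest annotated transcript of Zfp972 has 561 bases and its annotated protein, of 139 residues, holds a KRAB box and no C2H2 pattern (0). FPKM divides by this short length, so its level beside other genes rests on the annotated model. Zfp972 and Zfp971, which fell, lie together within 130.7 kb.

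Shared sequence limits how far these values belong to single genes. In the transcripts of Zfp970, Zfp971, Zfp972 and Zfp973, 49.5%, 51.1%, 55.7% and 84.7% of all 50-base windows also occur in transcripts of another gene. Reads that lie wholly within such windows cannot be placed by sequence alone, and RSEM divides them by its model. Of 100-base windows, fewer were shared, at 17.4%, 22.1%, 32% and 73.2% in the same order of genes. Among the 13 of 49 genes with at least 20% of windows shared, the median coefficient of variation between fed samples was 21.6%, against 10.5% in the other 36. Between fasted samples it was 19.2% against 14.7%. By KRAB pattern the fed medians were 24.4% with it and 9.5% without it, and the 2 traits were not separated. The part of shared reads in the opposite directions was not tested.

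**Figure D3:**
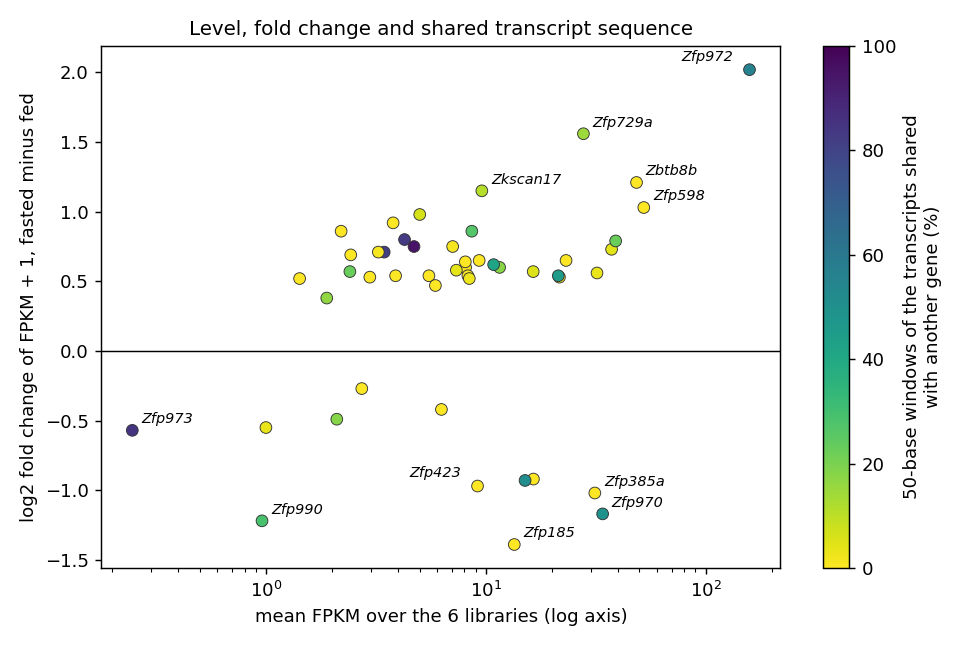
Each point is a zinc finger gene; the horizontal axis is its mean FPKM over the 6 libraries on a log axis, the vertical axis the log2 fold change of FPKM + 1, and the colour the share of 50-base transcript windows found in another gene. Zfp973 and Zfp990 are placed by a fit without the filter. Zfp972, at 158 FPKM, stands apart at the upper right, and genes with much shared sequence lie both above and below 0.

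On chromosome 9, 3 neighbouring KRAB genes were lower in fasted fat. Zfp872, Zfp809 and Zfp810 lie within 119.6 kb (chr9:22188090-22307648, GRCm38), a stretch that holds 4 annotated genes of this naming, 3 of them in the files. Zfp809 silences murine leukaemia virus and related endogenous retroviruses by reading their primer binding site. It was at 25.20, 15.51 and 25.38 FPKM in fed and 12.10, 11.28 and 9.41 FPKM in fasted fat (-0.92 ± 0.21, limma adjusted p = 0.00669). Fed replicate 2 was the lowest fed library and still above every fasted one. Zfp872, at 1.37 ± 0.20 FPKM in fed and 0.63 ± 0.34 FPKM in fasted fat (mean ± SD, n = 3 each), fell by 0.55 on the log2(FPKM + 1) scale (SE 0.20, adjusted p = 0.0301), and by 1.08 with a pseudocount of 0.1. Its call was lost with median-ratio scaling (0.0685) and without fasted replicate 2 (0.0938) or 3 (0.0855), and when any of the other 4 libraries was omitted its mean dropped under the filter, so that it was called in no set of 5 libraries. Zfp810 was lower without a call, at 7.37 ± 1.70 and 5.20 ± 0.52 FPKM (-0.42 ± 0.18, adjusted p = 0.0505). With median-ratio scaling it was at -0.24 (adjusted p = 0.259). It passed with quantile scaling (0.0488), with a pseudocount of 0.1 (0.0491) and without fed replicate 2 (0.0364).

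The promoter windows of these 3 genes are shown because the genes stand close to each other and were all lower in fasted fat, Zfp810 without a call. Capitals mark the CCAAT box in either orientation and the core letters of the cAMP response element (TGACG, or CGTCA on the other strand), read by CREB and ATF proteins. The windows are chr9:22187916-22188089 and chr9:22225453-22225702 on the plus strand for Zfp872 and Zfp809, and chr9:22307649-22307888 on the minus strand for Zfp810.
Zfp872: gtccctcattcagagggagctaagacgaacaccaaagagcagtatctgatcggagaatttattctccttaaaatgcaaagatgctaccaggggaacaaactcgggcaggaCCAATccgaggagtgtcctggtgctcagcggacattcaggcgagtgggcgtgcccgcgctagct
Zfp809: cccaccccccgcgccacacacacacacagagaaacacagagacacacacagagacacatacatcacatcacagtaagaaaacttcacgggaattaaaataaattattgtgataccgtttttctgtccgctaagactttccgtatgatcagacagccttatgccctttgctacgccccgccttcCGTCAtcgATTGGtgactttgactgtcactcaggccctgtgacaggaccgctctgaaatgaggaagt
Zfp810: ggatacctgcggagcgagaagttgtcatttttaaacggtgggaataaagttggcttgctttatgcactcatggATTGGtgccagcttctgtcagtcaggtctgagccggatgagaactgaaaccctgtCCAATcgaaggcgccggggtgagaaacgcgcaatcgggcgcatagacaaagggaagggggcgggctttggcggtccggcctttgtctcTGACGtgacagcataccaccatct

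Each of the 3 windows held a CCAAT box, and those of Zfp809 and Zfp810 also held the cAMP core, and that of Zfp872 did not. Unlike the chromosome 2 copies, these genes share little transcript sequence, with 3.41% of 50-base windows shared for Zfp872 and 0% for Zfp809 and Zfp810.

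Over all genes, promoter windows of 250 bases were matched by symbol for 38 of the 49. A CCAAT box was found in 19 of the 38 (50%), against 34.5% of all 27025 promoters, 37.5% of those of the genes held and 46.8% of the 355 of other genes of this naming. It was in 11 of 27 genes called higher and in 6 of 8 called lower. Those 6 include Zfp970 and Zfp971, whose windows are 97.4% identical, so they are not independent. The cAMP core was in 12 of 38 (31.6%), against 17.9% of all promoters, 25.1% of those of the genes held and 24.8% of the 355. It was in 9 of 27 genes called higher and in 1 of 8 called lower. A GC box (GGGCGG) was in 52.6% of the 38 and in 61% of those of the genes held. The full cAMP element (TGACGTCA), the FOXO letters TGTTTAC and the palindrome of the glucocorticoid receptor were in none (0) of the 38, and are in 1.62%, 3.09% and 0.0037% of all promoters. They are in 2.61%, 2.29% and 0% of those of the genes held and in 3.94%, 1.13% and 0% of the 355. Promoters of KRAB genes were poorer in CG pairs, with a median of 3 per window in 13 genes, than those of the other 25 genes, with 13. The KRAB promoters include the 4 similar copies of chromosome 2, with 2 to 4 CG pairs in the windows shown above. In all 9 motifs were searched, on both strands, and the other 3 (CACGTG for the E-box, TATAAA for the TATA box and TCACNCCAC for the sterol response element) were found in at most 1 of the 38. Promoters of the genes held carry these 3 in 8.94%, 7.43% and 1.1%. Of the 9 motifs only the cAMP core and the full element share letters, and a match describes letters, not binding.

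The other KRAB genes that fell or were lower included the gene with the largest spread between fed samples. Zfp990, on chromosome 4, was at 0.19, 2.94 and 2.39 FPKM in the fed libraries and 0.15, 0.06 and 0.03 FPKM in the fasted ones. Fed replicate 1 was nearly as low as fasted replicate 1, and the other fed libraries were far higher. Its mean of 0.96 FPKM was under the filter, and 29.1% of its 50-base windows are shared. Zfp354b on chromosome 11, at 2.62 ± 0.37 FPKM in fed and 1.58 ± 0.33 FPKM in fasted fat, fell by 0.49 (SE 0.17, limma adjusted p = 0.0266). Its call was lost with median-ratio scaling (0.0752), without fed replicate 2 (0.0692) or 3 (0.065) and without fasted replicate 2 (0.0896) or 3 (0.066). Among the 12 genes lower in fasted fat, fed replicate 1 was the lowest fed library in 7.

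KRAB genes that rose were led, after Zfp972, by Zfp729a on chromosome 13, whose protein carries 27 finger patterns. It was at 9.28, 13.32 and 17.18 FPKM in the fed and 35.99, 62.91 and 28.28 FPKM in the fasted libraries, a ratio of means of 3.20 (log2 fold change 1.56 ± 0.31, limma adjusted p = 0.00489). The lowest fasted sample was above the highest fed one. Zfp612 went from 1.28 ± 0.28 to 3.12 ± 0.45 FPKM (0.86 ± 0.17, adjusted p = 0.00481). Zfp979, like Zfp990 on chromosome 4, was at 7.32, 6.27 and 3.79 FPKM in fed and 16.11, 10.95 and 7.43 FPKM in fasted fat (0.86 ± 0.30, adjusted p = 0.0265). Fasted replicate 3 and fed replicate 1 almost met, and the call was lost without fed replicate 3 (0.0826), fasted replicate 1 (0.0816) or fasted replicate 2 (0.0569). Zfp960 (0.80 ± 0.21) and Zfp97 (0.71 ± 0.16) lie side by side on chromosome 17, and 81.4% of the 50-base windows of Zfp960 occur in Zfp97, so their rises are not independent. Zfp617 (0.62 ± 0.15) and Zfp119b (0.57 ± 0.16) rose less. Of the 50-base windows of Zfp617, Zfp119b and Zfp979, 41.5%, 23% and 26.7% are shared with other genes.

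The SCAN genes rose together, and 3 of them are neighbours. Zscan12, Zkscan3 and Zscan26 lie within 90.9 kb on chromosome 13 (chr13:21362820-21453730, GRCm38), in a stretch with 4 protein-coding genes, 3 of which were held. Zkscan3 is known as a repressor of autophagy and lysosome genes. It was at 30.94, 25.91 and 26.61 FPKM in fed and 53.47, 47.20 and 40.10 FPKM in fasted fat (0.73 ± 0.14, limma adjusted p = 0.00471). Zscan26 was at 29.92, 24.08 and 30.71 FPKM in fed and 57.96, 48.13 and 43.19 FPKM in fasted fat (0.79 ± 0.16, adjusted p = 0.00454). Zscan12 was far less abundant than either, going from 2.21 ± 0.21 to 4.28 ± 0.65 FPKM (0.71 ± 0.16). In all 3 genes every fasted value was above every fed value. The exons of Zscan26 overlap those of the opposite-strand gene 4930470G03Rik over 23.6% of their length, and reads of the overlap cannot be assigned without strand.

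Zkscan17, which encodes Nizp1, a partner of the histone methyltransferase NSD1, had the largest rise of the SCAN genes. It was at 6.59, 4.21 and 6.01 FPKM in fed and 16.02, 13.07 and 11.70 FPKM in fasted fat, a ratio of means of 2.43 (1.15 ± 0.19, limma adjusted p = 0.00269, and 0.0497 over all annotated genes). Every fasted value was above every fed value. The exons of Zkscan17 overlap those of the opposite-strand gene 4933439C10Rik over 13.5% of their length, and 11.2% of its 50-base windows are shared. Zscan25 (0.75 ± 0.21) on chromosome 5 stands beside Zfp655 (0.65 ± 0.16), which encodes a zinc finger protein that binds the exchange factor VAV1. Both lie within 59.6 kb and both rose. Zscan21 rose from 6.04 ± 0.91 to 10.1 ± 2.44 FPKM (0.64 ± 0.20), and it no longer passed when fed replicate 2, fed replicate 3, fasted replicate 1 or fasted replicate 2 was omitted, with an adjusted p between 0.052 and 0.0627.

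**Figure D4:**
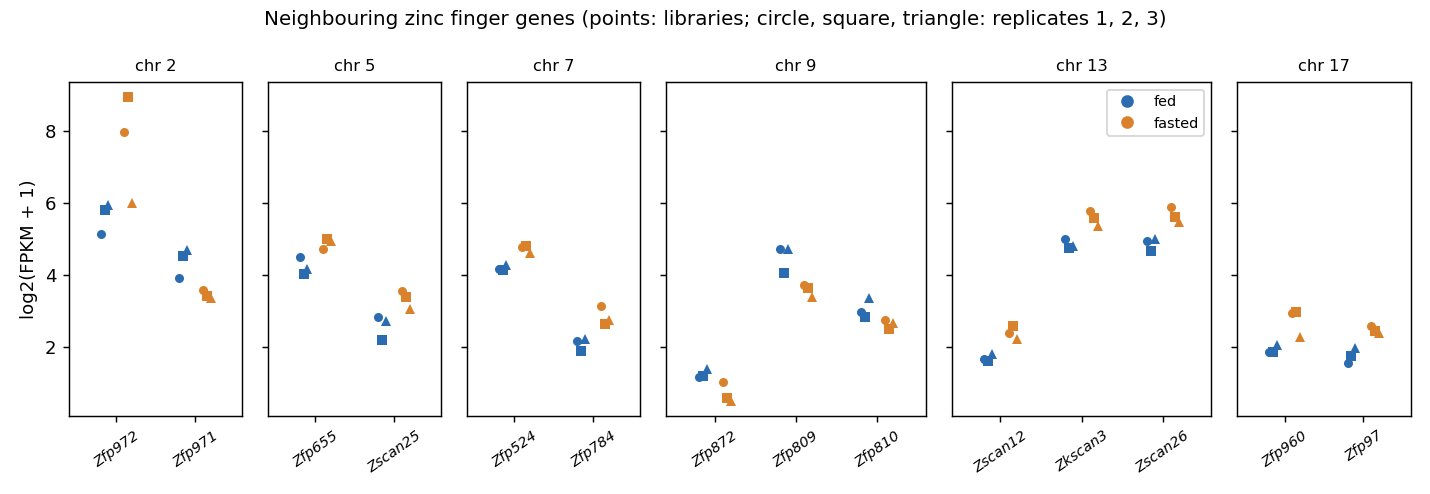
Points are libraries on the log2(FPKM + 1) scale, blue for fed and orange for fasted, for zinc finger genes held that lie within 250 kb of each other, in chromosomal order. In 5 of the 6 groups all genes lie on the same side of fed, lower on chromosome 9 and higher on chromosomes 5, 7, 13 and 17, and only Zfp972 and Zfp971 on chromosome 2 go apart. Of all zinc finger genes held 75.5% were higher in fasted fat, and agreement between neighbours was not tested. The chromosome 17 pair shares most of its sequence (81.4% of the 50-base windows of Zfp960), and Zfp784 on chromosome 7 is overlapped over 94.8% of its exon length.

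The BTB genes were Zbtb8b and Zbtb46. Zbtb8b was at 18.90, 26.27 and 40.77 FPKM in fed and 50.22, 103.08 and 51.94 FPKM in fasted fat (1.21 ± 0.34, limma adjusted p = 0.0134). The spread was wide in both groups, with coefficients of variation of 38.8% and 43.9%. The groups did not overlap, as in all 49 zinc finger genes and in 93.4% of all genes held. Zbtb46 is a factor of classical dendritic cells that is also found in endothelium. It rose from 6.17 ± 0.59 to 10.03 ± 2.54 FPKM (0.60 ± 0.18, adjusted p = 0.0176). Of 11 endothelial markers listed 4 were held (Pecam1, Tek, Emcn and Egfl7) and all 4 rose, against 41.1% of all tested genes. Their summed level was 176.2 to 216.7 FPKM in fed and 283.3 to 414.3 FPKM in fasted fat. Their part in the rise of Zbtb46 was not tested, and in bulk tissue a change in the number of cells of a type and a change in RNA per cell cannot be told apart.

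Among factors with finger patterns but no KRAB or SCAN pattern and no Zbtb symbol, those known from fat cells moved in opposite directions. Zfp423, the preadipocyte commitment factor, was at 12.52, 11.58 and 13.32 FPKM in fed and 6.42, 4.97 and 6.25 FPKM in fasted fat, a ratio of 2.12 in favour of fed (-0.97 ± 0.14, limma adjusted p = 0.00189, and 0.0349 over all annotated genes). Its replicates were tight, with a coefficient of variation of 6.98% in fed fat. Zfp423 is expressed in progenitors and mural cells as well as adipocytes. Of 12 progenitor markers 5 were held, of which 3 rose (Dcn, Ly6a and Icam1) and 2 fell (Col1a1 and Col3a1), with summed levels of 804.9 to 1078 FPKM in fed and 1254 to 1865 FPKM in fasted fat. Only 1 of these falls passed under median-ratio or quantile scaling, with a mean of at least 5 FPKM, or when any single library other than fed replicate 1 was omitted, Col1a1 losing its call. Of 9 mural markers 6 were held, 4 higher and 2 lower, with sums of 260.4 to 369.6 and 269.3 to 330.8 FPKM. Of the 2 mural falls (Mcam and Cspg4) that of Cspg4 lost its call under median-ratio scaling and when replicate 2 or 3 of either group was omitted. Only 3 of the 4 mural rises passed without fed replicate 2, fed replicate 3 or fasted replicate 1. All 7 adipocyte markers held of 15 listed (Plin1, Lep, Retn, Aoc3, Slc2a4, Mrap and Tshr) fell, 6 of them under median-ratio or quantile scaling. Their sum was 6067 to 7241 FPKM in fed and 3344 to 3929 FPKM in fasted fat. Of all tested genes 41.1% were called higher and 49.4% lower. The largest part of the adipocyte sum was Retn (mean 4156 FPKM in fed and 2758 FPKM in fasted fat). For the progenitor sum it was Dcn (505 and 1061 FPKM), and for the mural sum Mcam (224 and 115 FPKM). A sum can thus move apart from most of its markers. The part of cell composition in the fall of Zfp423 was not tested.

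Zfp516, the activator of the brown fat programme, rose from 2.49, 2.17 and 2.26 FPKM to 5.51, 5.57 and 4.74 FPKM (0.92 ± 0.14, limma adjusted p = 0.00216, and 0.0399 over all annotated genes). The ratio of means was 2.29 and the coefficients of variation were 7.15% and 8.78%, so replicates lay close together although the level was low. Zfp385a encodes an RNA-binding zinc finger protein known to favour adipocyte differentiation through C/EBP-alpha. It was at 43.34, 47.81 and 36.19 FPKM in fed and 19.25, 19.78 and 21.76 FPKM in fasted fat (-1.02 ± 0.14, adjusted p = 0.00144, and 0.0267 over all annotated genes). The fasted samples were nearly alike and all below the fed samples. Cebpa itself, whose protein is C/EBP-alpha, went from 454 ± 45.3 to 354 ± 45.9 FPKM (-0.36 ± 0.14).

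Zfp185 had the deepest fall among called zinc finger genes, although its protein holds no C2H2 pattern (0) and is a LIM-domain protein of the actin cytoskeleton. It was at 17.56, 25.02 and 17.26 FPKM in fed and 9.31, 5.30 and 6.47 FPKM in fasted fat, a ratio of 2.84 in favour of fed (-1.39 ± 0.22, limma adjusted p = 0.00249, and 0.0461 over all annotated genes). The groups lay far apart against their spread. Its symbol places it among zinc finger proteins without it being a C2H2 factor.

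Zfp598, Zfp622, Zfp346 and Zfp330, whose proteins are known from ribosomes, RNA or the nucleolus, each rose. Zfp598 encodes the ubiquitin ligase that marks collided ribosomes, and was at 47.95, 25.17 and 31.02 FPKM in fed and 67.82, 61.69 and 80.52 FPKM in fasted fat (1.03 ± 0.23, limma adjusted p = 0.00665). Fed replicate 1 was the highest fed library and stayed below the lowest fasted one. Zfp622, the homologue of a yeast factor that matures the large ribosomal subunit, went from 7.02 ± 0.38 to 11.7 ± 1.45 FPKM (0.65 ± 0.14, adjusted p = 0.00572). Zfp346, a protein that binds double-stranded RNA, went from 4.30 ± 0.19 to 6.73 ± 0.70 FPKM (0.54 ± 0.14). Zfp330, a nucleolar protein without a C2H2 pattern, went from 13.1 ± 1.18 to 19.8 ± 1.32 FPKM (0.57 ± 0.13). These 4 genes were put together by hand, with no test of them as a group, and 76.6% of all tested zinc finger genes rose.

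Most of the remaining genes without a KRAB or SCAN pattern or a Zbtb symbol rose, by 0.47 to 0.98 on the log2 scale. Zfp956 had the largest of these rises (0.98 ± 0.29), with 3.43, 2.24 and 3.09 FPKM in fed and 10.89, 6.03 and 4.38 FPKM in fasted fat, the highest value lying in fasted replicate 1. Zfp784 (0.75 ± 0.18) is overlapped over 94.8% of its exon length by Zfp865 on the opposite strand, so its value cannot be told from that gene's without strand. Zfp524 (0.54 ± 0.12), its neighbour on chromosome 7, shares 45% of its windows with the overlapping model Gm44973. The abundant Zfp740 rose from 25.6 ± 2.37 to 38.5 ± 6.19 FPKM (0.56 ± 0.15), and Zfp358 from 17.5 ± 1.47 to 25.7 ± 2.04 FPKM (0.53 ± 0.12).

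Several further genes without these patterns rose, most at a low level. Zfp462, a large protein with 33 finger patterns that acts in heterochromatin, went from 0.99 ± 0.08 to 1.86 ± 0.27 FPKM, 0.52 ± 0.16 on the log2(FPKM + 1) scale and 0.84 with a pseudocount of 0.1. Zfp608 went from 1.63 ± 0.50 to 3.23 ± 0.63 FPKM (0.69 ± 0.20). Zfp422 (0.60 ± 0.13), Zfp280d (0.58 ± 0.18), Zfp275 (0.54 ± 0.16), Zfp512 (0.54 ± 0.15), Zfp654 (0.53 ± 0.17), Zfp787 (0.52 ± 0.14) and Zfp574 (0.47 ± 0.14) rose as well. Zfp275, Zfp280d, Zfp462, Zfp574 and Zfp654 each lost their call without at least 1 of the libraries (adjusted p of 0.0509 to 0.0726), and Zfp654 also with quantile scaling (0.0557). Zfp704 (0.38 ± 0.16, limma adjusted p = 0.0509) and Zfp518a (-0.27 ± 0.14, adjusted p = 0.0932) did not pass. Zfp704 passed with median-ratio scaling (0.0166), with no filter (0.0355) and without fasted replicate 3 (0.0457), and Zfp518a with quantile scaling (-0.43, adjusted p = 0.0256).

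The partners of these proteins were held only in small part. Of 37 genes listed as partners of KRAB repression 5 were held, and Trim28 and Setdb1 were not analysed here. All 5 were called, 2 higher and 3 lower, a split near the 41.1% and 49.4% of all tested genes. None (0) of the 5 passed over all annotated genes. Trim24 (0.51 ± 0.15) and Mphosph8 (0.48 ± 0.14), a reader of methylated histone H3, rose, while Mta3 (-0.37 ± 0.12), Mbd3 (-0.31 ± 0.11) and Hdac1, subunits of the NuRD complex, fell. These 3 falls lost their calls with median-ratio or quantile scaling, and likewise when fed replicate 2 or when fasted replicate 2 was omitted. Only 1 of the 3 passed without fed replicate 1, fasted replicate 1 or fasted replicate 3, 2 passed without fed replicate 3, and 1 of the rises without fasted replicate 2.

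Of 109 zinc finger factors with other names 21 were held and 16 tested, of which 7 rose, 8 fell and 1 did not pass, with a median of -0.33. These shares lie near the 41.1% and 49.4% of all tested genes. Peg3, an imprinted zinc finger gene (3.23 ± 0.43), and Klf11 (0.68 ± 0.17) rose, and Zeb2 (-0.93 ± 0.19) and Plagl1 (-0.89 ± 0.22) fell. Under median-ratio scaling 5 falls passed, and without fasted replicate 1 or 2 only 4 rises passed. Of 44 genes of mRNA decay 6 were held and all 6 rose (median 0.68), among them Tob2 (1.26 ± 0.18), Tob1 (0.75 ± 0.18), Pan2 (0.87 ± 0.22) and Dcp1b (0.60 ± 0.17). Of 16 further factors of adipose differentiation and fasting 6 were held. Ppara (0.70 ± 0.15) and Ppargc1a (0.90 ± 0.24) rose, and Srebf1 (-1.54 ± 0.20) and Mlxipl (-0.85 ± 0.11) fell with Cebpa and Rxra. Only 2 of these 4 falls passed under median-ratio or quantile scaling, or without fed replicate 1 or fasted replicate 1. Of the macrophage markers Itgam alone was held and fell, Cd3e was the only lymphocyte marker held and was under the filter, and mesothelial and epididymal markers were not analysed here. The medians of these lists stand against -0.34 over all tested genes.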

How the data were processed

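RNA from 70 mg pieces of epididymal fat was extracted with Trizol, per the labels' protocols. Per the file headers, the deposited values are FPKM. RSEM and the builds mm10 and GRCm38.p6 come from the submitters' processing notes, while the sources name no aligner or version. Replicates were numbered in accession order within each treatment label. Symbols, coordinates and exons come from GENCODE's GRCm38 annotation, which matched 3158 of 3162 identifiers. limma 3.58.1 (R 4.3.3, eBayes with a variance trend) was fitted on log2(FPKM + 1) over the 2999 genes whose mean reached 1 FPKM, with two-sided p-values adjusted by Benjamini-Hochberg, after a check on simulated data. Fold changes on this scale understate low genes.

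The members and lists were chosen with earlier results of these data known. Genes named were the 10 largest rises and falls, the 10 highest in level, the largest plain ratios, a fixed list of well-known members, up to 4 of each pathway list, and members by class, position or overlap; Hdac1, Cebpa, Rxra and some further members were added after their values were seen. Alternatives were median-ratio and quantile scaling, a pseudocount of 0.1, no filter, a mean of at least 5 FPKM, adjustment over all 55450 annotated genes, and leaving out each library.

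Domain patterns were searched in proteins translated from annotated transcripts, allowing 5 (KRAB) or 10 (SCAN) mismatched letters. Shared windows are the share of a gene's 50-base (where stated, 100-base) transcript windows found in another gene's transcripts, taking the strand with more matches. Promoters were aligned with Biopython 1.88 with free ends. The list of BTB repression partners is not reported here.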

Additional observations from a re-analysis of the deposited data

How the results depend on the processing

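No paired analysis was possible because replicate numbers only follow accession order and the labels tie no fed mouse to any fasted one. Adjusted over all annotated genes, 2 zinc finger genes were higher and 3 lower, in place of 36 and 8. With the scalings, the pseudocount of 0.1, no filter or a mean of at least 5 FPKM, 25 to 37 were higher and 6 to 10 lower, the lowest count coming from the mean of at least 5 FPKM, which tests 32 of them. Leaving out each library gave 30 to 37 higher and 6 to 8 lower. The median log2 fold change stayed between 0.52 and 0.76. The median over all tested genes moved from -0.34 to -0.15 with median-ratio and -0.21 with quantile scaling, so falls are counted against a moving centre. None of the 47 tested zinc finger genes changed sign in any of these alternatives that tested it, and 13 of them changed sides of the threshold in at least 1 besides the adjustment over all annotated genes. Depth is unknown, and values near 0.01 FPKM are set by rounding.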
